A study of Mus musculus with 15 samples.

Results

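The genes described here are the matrix metalloproteases (Mmp), the membrane-anchored ADAM proteases (Adam), the secreted ADAMTS proteases (Adamts) and the tissue inhibitors of metalloproteases (Timp). They were chosen by symbol alone, as every Mmp, Adam or Adamts symbol made of the family name, a number and at most a letter a or b, together with Timp1 to Timp4. That gave 79 of the 55341 gene symbols in the deposited count table, with 23 Mmp, 33 Adam, 19 Adamts and 4 Timp genes. Of these, 28 had enough counts to be tested (11 Mmp, 7 Adam, 8 Adamts and 2 Timp), 51 did not, and 19 of the 51 had 0 counts in all 15 libraries, 16 of them Adam genes.

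The cells were 6DT1, a mouse mammary cancer line with an FVB/N1 background, in which Clic4, encoding chloride intracellular channel 4, had been knocked out (KO) or left intact (wild type, WT). The groups were KO cells given 1 µM hydrogen peroxide (H2O2; 3 libraries, replicates 5, 7 and 8), untreated KO cells (4 libraries, replicates 1 to 4), WT cells given 1 µM H2O2 (4 libraries, replicates 13 to 16) and untreated WT cells (4 libraries, replicates 9 to 12), all harvested at 24 h. The labels do not say how many KO clones were used, nor whether replicates were separate cultures. Adjusted p-values therefore measure the spread between these libraries, which may be technical, and a difference between KO and WT cannot be told apart from a difference between clones.

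Metalloproteases are zinc-dependent enzymes. MMPs cut collagens, proteoglycans and glycoproteins of the extracellular matrix and are made as inactive precursors. ADAMs sit in the plasma membrane and shed the outer parts of growth factors, cytokines, Notch receptors and adhesion molecules, while ADAMTS enzymes are secreted and cut proteoglycans, procollagens and microfibril components. TIMPs bind the active site of these enzymes and block it, and in mammary tumours and normal gland the balance of enzyme and inhibitor is part of how matrix is remodelled around epithelial ducts.

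Several of the genes with a KO difference lie next to each other on chromosome 9, in a cluster of 10 Mmp genes spanning 427.1 kb. The promoters of this cluster are known for carrying a binding site for AP-1, the dimer of FOS and JUN proteins. The windows below show the 130 bases before the RefSeq start of the 6 cluster genes that could be tested, read 5′ to 3′ on the gene's own strand, because these neighbours share the site and moved in opposite directions. The sequences are from RefSeq on GRCm38.p6, the assembly also called mm10. Capitals mark the AP-1 site TGANTCA, searched on both strands.
Mmp3: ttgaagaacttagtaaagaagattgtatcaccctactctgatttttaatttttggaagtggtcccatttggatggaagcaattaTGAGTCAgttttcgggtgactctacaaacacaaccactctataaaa
Mmp12: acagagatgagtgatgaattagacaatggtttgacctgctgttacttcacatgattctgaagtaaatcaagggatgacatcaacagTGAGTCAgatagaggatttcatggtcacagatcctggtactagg
Mmp13: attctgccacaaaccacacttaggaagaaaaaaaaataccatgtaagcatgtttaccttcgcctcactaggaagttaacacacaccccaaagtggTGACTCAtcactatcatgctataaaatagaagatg
Mmp10: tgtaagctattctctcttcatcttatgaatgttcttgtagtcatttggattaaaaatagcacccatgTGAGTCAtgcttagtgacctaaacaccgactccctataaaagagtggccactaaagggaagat
Mmp1a: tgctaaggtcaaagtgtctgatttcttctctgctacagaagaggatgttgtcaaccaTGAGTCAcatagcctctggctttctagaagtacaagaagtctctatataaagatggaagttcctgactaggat
Mmp1b: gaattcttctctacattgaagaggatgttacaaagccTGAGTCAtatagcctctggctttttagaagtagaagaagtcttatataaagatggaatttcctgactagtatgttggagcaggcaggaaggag
The windows lie at chr9:7445692-7445821 on the plus strand for Mmp3, chr9:7347244-7347373 (plus) for Mmp12, chr9:7272384-7272513 (plus) for Mmp13, chr9:7502212-7502341 (plus) for Mmp10, chr9:7464011-7464140 (plus) for Mmp1a and chr9:7388027-7388156 (minus) for Mmp1b. The site starts 46 bases before the RefSeq start of Mmp3, 44 before that of Mmp12, 35 before that of Mmp13, 63 before that of Mmp10, 73 before that of Mmp1a and 93 before that of Mmp1b. The Mmp12 window belongs to the later of its RefSeq starts, and the window of the earlier start held no TGANTCA. In RefSeq windows of 250 bases before to 50 after a start, 8 of the 10 cluster genes (80.0%) held TGANTCA, against 7.81% of 32851 windows of all genes (2565). A gene was counted if any of its windows held the site, while the share over all genes is by window, so the units differ. Mmp12 and Mmp7 each had a window with the site and a window without it. A RefSeq window could be matched to 49 of the 79 members, and 5 of the 39 matched members outside the cluster (12.82%) held the site. The ETS core AGGAAG was searched and counted the same way and is able to overlap TGANTCA by 1 base at most. It was in 7 of the 10 cluster genes, 14 of the 39 other members (35.9%) and 35.35% of all windows. A match is a description of the letters and not evidence of binding.

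The libraries held 12.3 to 16.0 M counts. Clic4 itself was at 68.4 to 75.9 counts per M (CPM, scaled between libraries by the TMM method) in H2O2-treated KO and 64.2 to 75.1 CPM in untreated KO libraries, against 313 to 317 CPM in H2O2-treated WT and 316 to 327 CPM in untreated WT libraries. Of 7 epithelial markers, Krt8 (610 to 681 CPM), Krt18 and Krt19 were abundant in every library, Krt18 at 160 to 175 CPM in H2O2-treated KO and 147 to 158 CPM in untreated KO, against 338 to 349 CPM in H2O2-treated WT and 332 to 336 CPM in untreated WT, and Krt19 at 158 to 176 and 148 to 161 CPM in those KO groups, against 51.4 to 62.1 and 51.3 to 60.3 CPM in those WT groups. Their part in the results was not tested. Cdh1 and Epcam, which define epithelium, were at or near 0 in all of them. The summed level of 8 fibroblast markers was 11.6 to 12.4 CPM in H2O2-treated KO, 11.3 to 14 CPM in untreated KO, 16.9 to 22 CPM in H2O2-treated WT and 19.8 to 22.5 CPM in untreated WT libraries, nearly all of it Pdgfra, with Lum at 0 in every group. Replicate 9 is titled untreated WT while its genotype field says knockout. It was kept as WT, had a Clic4 level in the WT range, and stood apart in some members described further on. Among untreated KO libraries, replicate 4 was the lowest in several members, such as Mmp12, Mmp13 and Adamts4. It was the highest in others, such as Adam8, Adam9, Mmp11 and Timp2. Several results that rest on either library, but not all, are given with and without it. In bulk RNA, fewer cells with a transcript and less of it per cell cannot be told apart.

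By level per gene length, in the deposited RPKM (reads per kilobase per M), 19 of the 79 members averaged at least 1 RPKM over all libraries and 8 at least 10 RPKM. Timp2 was highest at 99.3 RPKM, followed by Adam10 at 71.7, Mmp3 at 61.6, Timp1 at 60.2, Adam9 at 32.8, Adam17 at 22, Adamts14 at 19.2 and Mmp14 at 16.7 RPKM. Mmp3 ranked 2 in untreated KO cells with 92.7 RPKM and 5 in untreated WT cells with 30.1 RPKM. Adamts1 ranked 9 in untreated KO cells (13.2 RPKM) and 15 in untreated WT cells (3.35 RPKM), while Adam8 ranked 15 in untreated KO cells (3.03 RPKM) and 9 in untreated WT cells (8.11 RPKM). The plot of RPKM by gene shows these 3 genes with well separated groups and Timp2, Adamts14 and Mmp14 with touching ones.

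**Figure D1:**
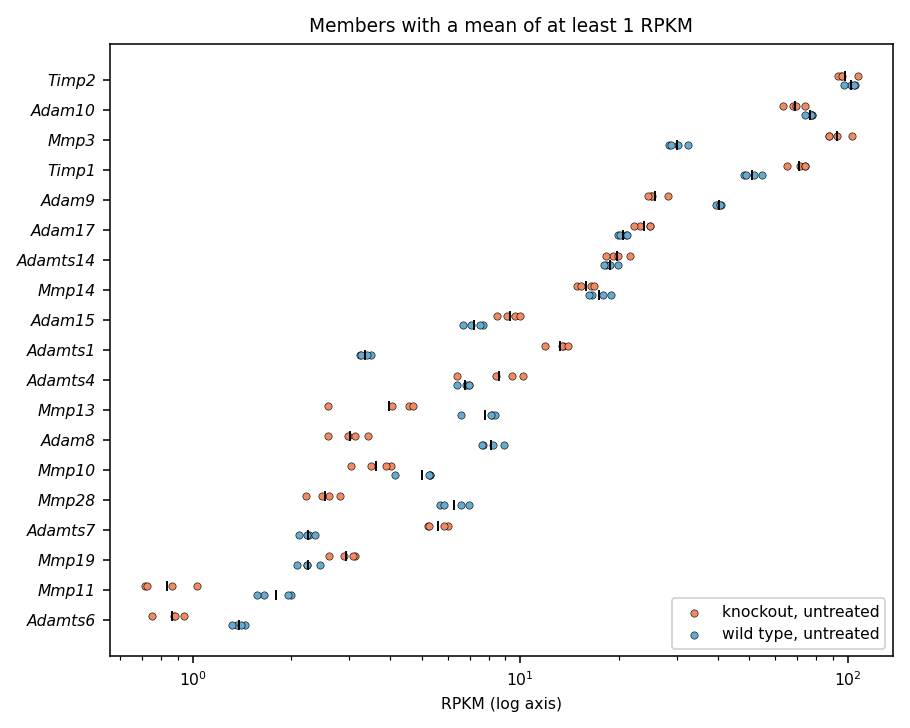
RPKM (log axis) of the 19 members with a mean of at least 1 RPKM, ordered from the highest mean (Timp2) to the lowest (Adamts6). Each point is 1 library of untreated KO (orange, upper of each pair) or untreated WT cells (blue), and black ticks are group means. Mmp3 averages 92.7 RPKM in KO and 30.1 RPKM in WT cells, while the points of Timp2 and Adamts14 overlap.

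With KO set against WT in untreated cells, 24 of the 28 tested members passed edgeR's quasi-likelihood test at an adjusted p under 0.05, 14 higher and 10 lower in KO. Of all 13085 genes tested, 66.8% passed in that comparison (33.9% higher and 32.9% lower), so passing this test is common here. A stricter test, edgeR's glmTreat, asks whether a change exceeds 1.5-fold. It was passed by 13 members, 8 higher and 5 lower, against 16.9% of all genes (8.90% higher and 7.98% lower). The median log2 fold change of the tested members was 0.09, against 0 over all genes, and their median absolute log2 fold change was 0.63, against 0.30 over all genes. Members had to pass a filter on low counts to be tested. Adam19, Adamts5 and Mmp2 passed it only through KO libraries and Mmp1a only through WT libraries, so that these had to differ. Without them 20 of 24 passed, 9 beyond 1.5-fold, and the median absolute log2 fold change was 0.56.

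With H2O2 in both genotypes, 22 of the 28 passed, 12 higher and 10 lower in KO, where 65.4% of all genes passed (33.0% higher and 32.4% lower). Beyond 1.5-fold were 11 members, 7 higher and 4 lower, against 17.0% of all genes (8.74% higher and 8.25% lower), and the median absolute log2 fold change was 0.69 against 0.31 over all genes. Without the members tested through 1 genotype only, 18 of 24 passed, 9 higher and 9 lower. Of these 24, 7 exceeded 1.5-fold, and their median absolute log2 fold change was 0.62. In untreated cells the KO and WT values of 19 of the 28 members did not overlap, where those of 58.5% of all genes did not, and with H2O2 those of 22 did not, where those of 66.4% of all genes did not. Members tested through 1 genotype only are among them. The 2 comparisons share no library but set the same KO cells against the same WT cells in 1 fit. In both, 21 members passed with the same direction, among them Adam19, Adamts5, Mmp2 and Mmp1a. The share of all genes that did so was not counted, so the 21 are a description. Adam10, Adamts14 and Adamts4 passed only without H2O2, Timp2 passed only with it, and Adam1a, Adamts9 and Mmp14 passed in neither, although no member passed the test of the difference between the 2 comparisons. By family, the untreated comparison called 4 Mmp genes higher and 6 lower, 3 Adam genes higher and 3 lower, 6 Adamts genes higher and 1 lower, and 1 Timp gene higher. Without replicate 9, 22 members passed in untreated cells and 12 exceeded 1.5-fold, and without replicate 4 the counts were 22 and 13. Of all genes, 8501 of 13049 passed without replicate 9 and 8682 of 13046 without replicate 4.

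**Figure D2:**
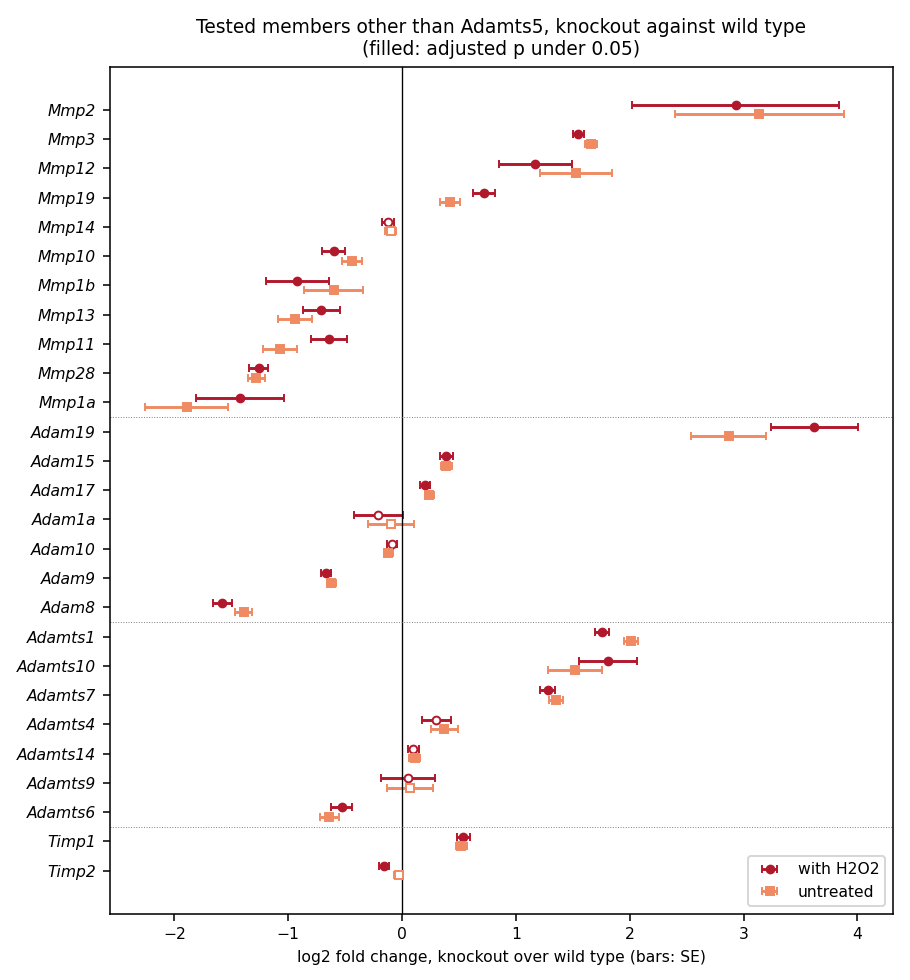
Log2 fold change of KO over WT (x axis) for the tested members other than Adamts5 by family, with H2O2 (red circles) and untreated (orange squares), with bars for the standard error and filled marks for an adjusted p under 0.05. Adamts5, at 0 counts in untreated WT cells, has no fold change to plot. The Adamts genes that passed lie to the right of 0 in untreated cells, except Adamts6 at -0.64, while Mmp genes lie on both sides.

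Among the stromelysins, Mmp3 rose while Mmp10 and Mmp11 fell in KO cells. Mmp3 (stromelysin 1, which cuts proteoglycans, laminin and fibronectin and activates other MMP precursors; chr9:7445822-7455975, plus strand) had 305, 338, 287 and 285 CPM in untreated KO libraries, against 104, 90.9, 97.4 and 93.0 CPM in untreated WT libraries. With H2O2, Mmp3 had 324, 327 and 312 CPM in KO, against 107, 109, 115 and 107 CPM in WT. Every KO library lay far above every WT library. Its log2 fold change was 1.66 ± 0.0495 (SE; 3.15-fold; adjusted p = 1.18e-20) in untreated cells and 1.55 ± 0.0518 (2.93-fold; adjusted p = 1.75e-19) with H2O2. Mmp10 (stromelysin 2), its close relative downstream in the cluster, averaged 11.5 ± 1.44 CPM in untreated KO and 15.6 ± 1.76 CPM in untreated WT cells (SD, n = 4 each), a log2 fold change of -0.44 (adjusted p = 0.00012), and -0.60 with H2O2 (adjusted p = 6.52e-06). Mmp11 (stromelysin 3, activated by furin inside the cell) had 2.37, 2.88, 2.41 and 3.41 CPM in untreated KO libraries, against 5.33, 6.45, 5.08 and 6.38 CPM in untreated WT libraries. These do not overlap, and the log2 fold change was -1.07 ± 0.148 (adjusted p = 3.31e-07). With H2O2, Mmp11 had 3.54, 2.95 and 3.35 CPM in KO, against 4.59, 5.10, 4.68 and 6.11 CPM in WT, again without overlap, with a log2 fold change of -0.64 (adjusted p = 0.00101) that did not exceed 1.5-fold by glmTreat (adjusted p = 0.657). Chchd10 lies opposite Mmp11 and shares 155 exon bases with it.

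Of the collagenases, Mmp13 and Mmp1a fell in KO cells. Mmp13 (collagenase 3, the main collagenase of fibrillar collagen in mice; chr9:7272514-7283331, plus strand) had 16.8, 19.0, 19.5 and 10.6 CPM in untreated KO libraries, against 32.9, 33.9, 33.0 and 26.8 CPM in untreated WT libraries. With H2O2, Mmp13 had 18.8, 18.5 and 19.3 CPM in KO, against 35.2, 30.6, 28.7 and 28.3 CPM in WT. The groups did not overlap in either setting, and the lowest KO value was that of replicate 4. Mmp13 had a log2 fold change of -0.94 ± 0.148 (adjusted p = 8.03e-05) in untreated cells and -0.71 ± 0.161 (adjusted p = 0.00162) with H2O2. Without replicate 4 the untreated value was -0.77 (adjusted p = 7.37e-09). In untreated cells the change exceeded 1.5-fold by glmTreat (adjusted p = 0.0265), but not without WT replicate 9 (0.0558), 10 (0.0599) or 11 (0.0524).

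Mmp1a and Mmp1b, the mouse relatives of human interstitial collagenase MMP1, were low. Mmp1a, annotated as a polymorphic pseudogene, had 20 counts over the untreated KO libraries, against 76 over the untreated WT libraries, a CPM ratio of 0.266 (95% exact binomial interval 0.154 to 0.439), and 19 against 73 counts with H2O2, a ratio of 0.375 (0.214 to 0.628). It ranged from 0.205 to 0.534 CPM in untreated KO and 0.992 to 1.53 CPM in untreated WT libraries, and the groups did not overlap. The log2 fold change was -1.89 (adjusted p = 4.98e-05) and -1.42 with H2O2 (adjusted p = 0.0021), where the glmTreat call was lost without KO replicate 8 (adjusted p = 0.218) or WT replicate 15 (0.132). Mmp1a was tested only through its WT counts, so these p-values are descriptions. Mmp1b had a log2 fold change of -0.60 (adjusted p = 0.0457) and -0.92 with H2O2 (adjusted p = 0.00461). In untreated cells its groups overlapped, and the call was lost without any of KO replicates 2, 3 and 4 (adjusted p = 0.0525, 0.154 and 0.0558) or WT replicates 9, 11 and 12 (0.0918, 0.0724 and 0.0895). Mmp1a and Mmp1b are near-copies of each other, so how reads were split between them is uncertain.

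Mmp12 (macrophage elastase) rose from a low level, next to Mmp1b, which fell. Mmp12 had 3.14, 2.26, 2.41 and 0.935 CPM in untreated KO libraries, against 0.945, 0.496, 0.835 and 0.702 CPM in untreated WT libraries. The groups overlapped through KO replicate 4 and WT replicate 9. With H2O2, Mmp12 had 1.60, 2.33 and 2.86 CPM in KO, against 1.01, 0.872, 0.817 and 1.29 CPM in WT, without overlap. The log2 fold change was 1.53 ± 0.314 (adjusted p = 0.000103) in untreated cells and 1.17 ± 0.319 (adjusted p = 0.00214) with H2O2, and the untreated value was 1.78 without replicate 4 and 1.66 without replicate 9. With H2O2 the change did not exceed 1.5-fold by glmTreat (adjusted p = 0.0619), but did without KO replicate 5 (0.026) or WT replicate 16 (0.0417). Mmp12 and Mmp1b overlap tail to tail on opposite strands and share 157 exon bases. The libraries mark strand, but whether strand was used in counting is not given in the sources used here.

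Along the cluster, from Mmp13 through Mmp12, Mmp1b, Mmp3, Mmp1a to Mmp10, the changes differed in sign between neighbours, with Mmp12 and Mmp3 higher and the other 4 lower in KO. All 6 hold TGANTCA in a promoter window. Among tested members with a RefSeq window, the site was in 3 of the 8 that were higher and 4 of the 8 that were lower in untreated KO cells. Of the 4 cluster genes that were not tested, Mmp7 and Mmp20 had 0 counts, Mmp27 had 2 counts over the WT libraries, and Mmp8 is described with replicate 9.

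**Figure D3:**
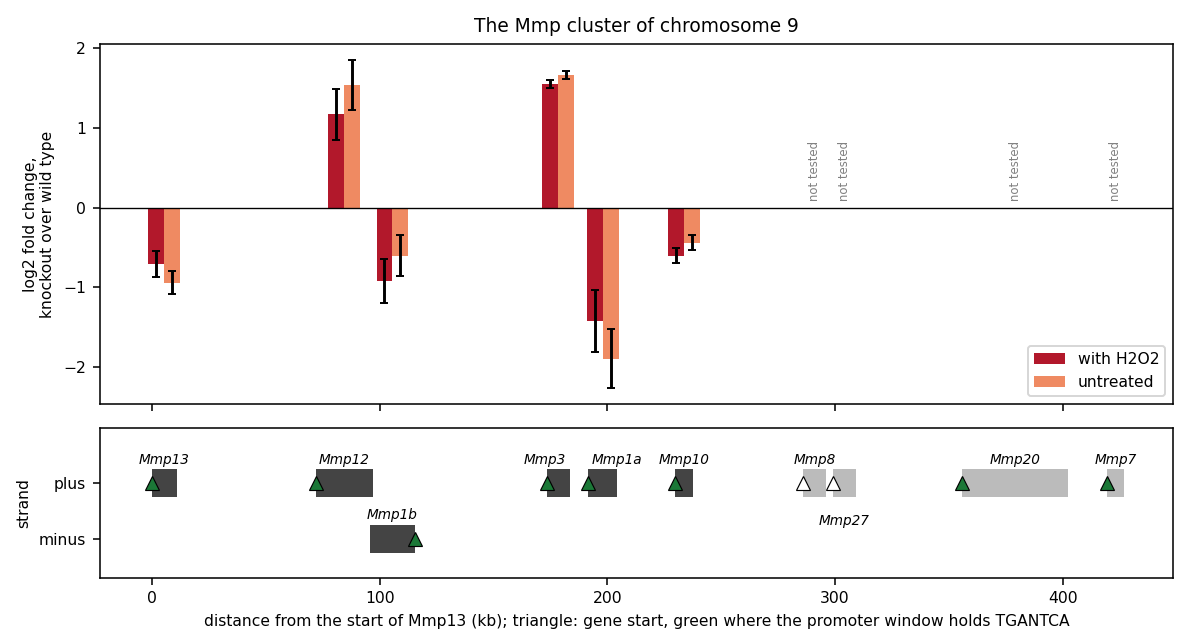
The 10 Mmp genes of the chromosome 9 cluster by distance in kb from the start of Mmp13. Bars above give the log2 fold change of KO over WT with H2O2 (red) and untreated (orange) with SE bars. Boxes below give each gene's extent and strand (dark where tested), and triangles its start, green where a RefSeq promoter window holds TGANTCA. Mmp12 and Mmp3 point up and their neighbours point down.

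The gelatinase Mmp2, activated at the cell surface by MMP14 together with TIMP2, was near the floor of detection. It had 39 counts over the untreated KO libraries, against 4 over the untreated WT libraries, a CPM ratio of 9.84 (3.55 to 37.9), and 18 against 3 counts with H2O2, a ratio of 8.65 (2.52 to 45.8). It ranged from 0.383 to 0.935 CPM in untreated KO and 0 to 0.203 CPM in untreated WT libraries. With H2O2 it ranged from 0.137 to 0.9 CPM in KO and 0 to 0.187 CPM in WT libraries, and these groups overlapped. Mmp2 passed edgeR's quasi-likelihood test in both settings (adjusted p = 0.000606 and, with H2O2, 0.00641), but it was tested only through its KO counts, so the p is a description. These calls depend on single libraries: Mmp2 had too few counts to be tested in untreated cells without KO replicate 3 or 4, and with H2O2 the call was lost without KO replicate 8 (adjusted p = 0.0909). Of the WT counts, 3 of the 4 untreated were in replicate 9 and all 3 with H2O2 in replicate 14. The glmTreat call with H2O2 was also lost without WT replicate 13 (adjusted p = 0.101), 15 (0.0852) or 16 (0.089). Mmp14, its membrane-type activator, did not pass: it averaged 78.7 ± 4.17 CPM in untreated KO and 84.5 ± 5.74 CPM in untreated WT cells (SD, n = 4 each), with log2 fold changes of -0.10 (adjusted p = 0.0735) and, with H2O2, -0.12 (adjusted p = 0.0506). It passed without KO replicate 3 or 4 (0.0432 and 0.0333) or WT replicate 11 or 12 (0.0347 and 0.0182), and with H2O2 without KO replicate 7 (0.0126) or WT replicate 14 (0.0434).

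Mmp28 (epilysin, an MMP of epithelia; chr11:83440768-83463071, minus strand) fell. It had 13.0, 11.1, 14.0 and 12.3 CPM in untreated KO libraries, against 32.1, 33.9, 27.8 and 28.5 CPM in untreated WT libraries. With H2O2, Mmp28 had 11.9, 12.0 and 11.4 CPM in KO, against 29.3, 27.1, 27.1 and 29.2 CPM in WT. All KO libraries lay below all WT libraries. For Mmp28 the log2 fold change was -1.28 ± 0.0757 (adjusted p = 1.38e-14) in untreated cells and -1.26 ± 0.0855 (adjusted p = 3.22e-13) with H2O2. Mmp19 (an MMP of many normal tissues) rose by 0.42 on the log2 scale in untreated KO cells (adjusted p = 9.46e-05) and by 0.72 with H2O2 (adjusted p = 1.45e-07), without exceeding 1.5-fold by glmTreat. Mmp28 and Mmp19 each share exon bases with genes on the opposite strand, 466 with 1700020L24Rik and 789 with Tmem198b.

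**Figure D4:**
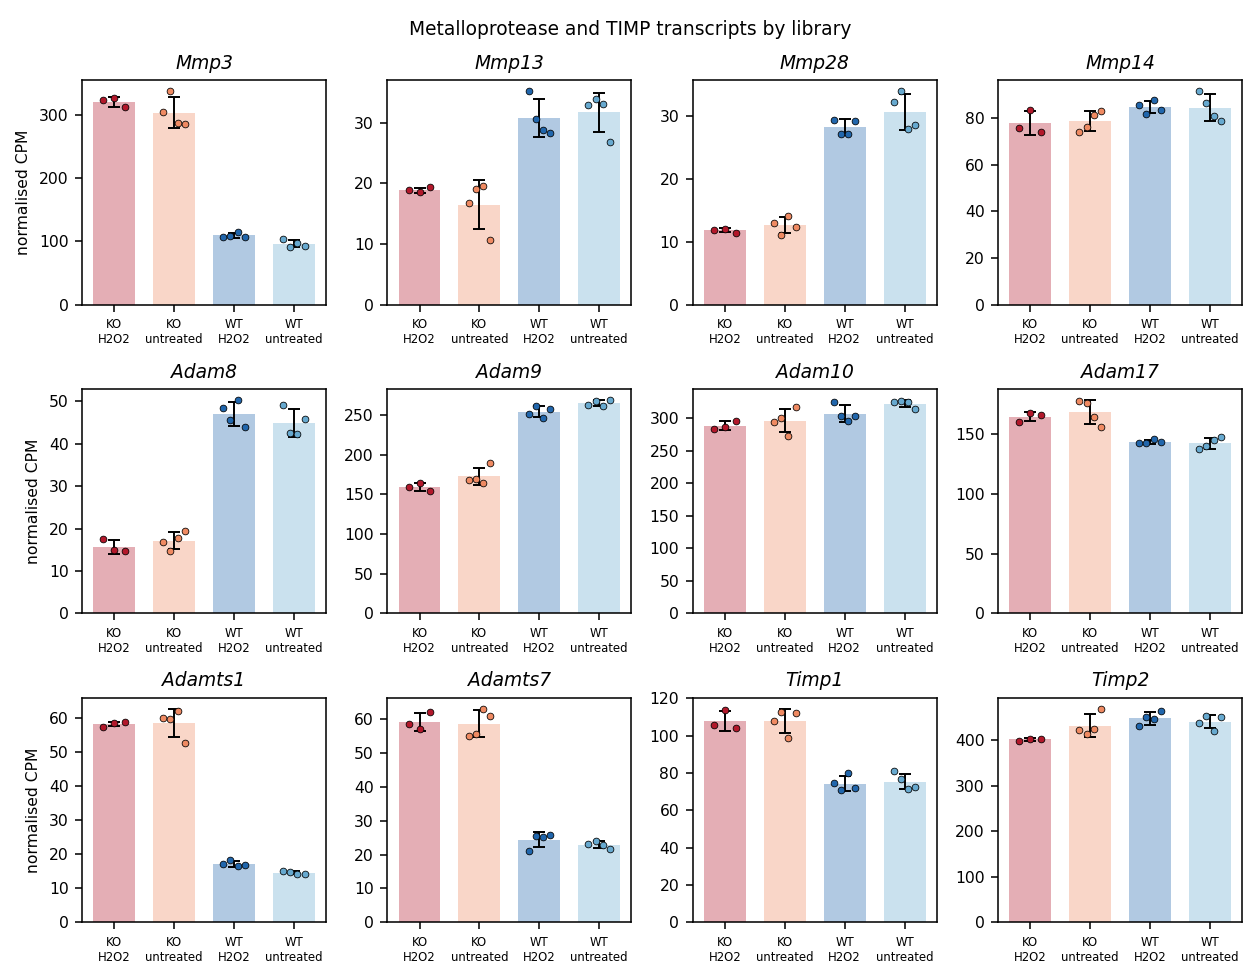
Normalised CPM (linear axes from 0) of 12 members in H2O2-treated KO, untreated KO, H2O2-treated WT and untreated WT libraries. Points are libraries, bars are means and whiskers are SD. Mmp3, Adamts1, Adamts7 and Timp1 are higher and Mmp13, Mmp28, Adam8 and Adam9 lower in both KO groups, while Mmp14, Adam10 and Timp2 overlap between genotypes in untreated cells.

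Of the ADAM sheddases, Adam8 and Adam9 fell and Adam19 rose. Adam8 (a sheddase best known from leukocytes and expressed in breast cancers; chr7:139978932-139992562, minus strand) had 16.8, 14.7, 17.7 and 19.4 CPM in untreated KO libraries, against 49.1, 42.4, 42.2 and 45.9 CPM in untreated WT libraries. With H2O2, Adam8 had 17.6, 15.0 and 14.6 CPM in KO, against 48.4, 45.5, 50.3 and 44.0 CPM in WT. The KO and WT libraries were widely separated. For Adam8 the log2 fold change was -1.39 ± 0.074 (adjusted p = 1.61e-15) in untreated cells and -1.58 ± 0.0831 (adjusted p = 1.48e-15) with H2O2. Adam8 stood beside a summed level of 10 macrophage and leukocyte markers of 292 to 309 CPM in H2O2-treated KO and 295 to 327 CPM in untreated KO, against 413 to 438 CPM in H2O2-treated WT and 401 to 446 CPM in untreated WT libraries. Most of that sum was Cd68, a lysosomal protein also made outside macrophages, and Cd14 and Itgam ran the other way. Cd14 was at 22.8 to 26.5 CPM in H2O2-treated KO and 16.1 to 24.7 CPM in untreated KO libraries. In WT it was at 15.2 to 17.2 CPM with H2O2 and 12.9 to 15.9 CPM untreated. Itgam was at 3.11 to 3.78 CPM in H2O2-treated KO and 3.04 to 3.83 CPM in untreated KO, against 0.79 to 0.934 CPM in H2O2-treated WT and 0.638 to 1.6 CPM in untreated WT libraries other than replicate 9 (6.48 CPM). The pan-leukocyte gene Ptprc was at 0 in both KO groups and, apart from replicate 9, at or near 0 in WT libraries. The part of leukocyte transcripts in the Adam8 difference was not tested.

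Adam9, a widely expressed sheddase, had 168, 170, 164 and 189 CPM in untreated KO libraries, against 263, 268, 261 and 269 CPM in untreated WT libraries. With H2O2, Adam9 had 159, 164 and 154 CPM in KO, against 251, 262, 246 and 257 CPM in WT. The groups were separate in both settings. Its log2 fold change was -0.62 ± 0.0398 (adjusted p = 7.82e-14) in untreated cells and -0.67 ± 0.0437 (adjusted p = 1.18e-13) with H2O2, close to the 1.5-fold line. It exceeded that line by glmTreat with H2O2 (adjusted p = 0.0375) and not without it (0.341). The call with H2O2 was lost without KO replicate 5 (0.0688) or 8 (0.173) or WT replicate 14 (0.1) or 16 (0.0679), and in untreated cells it appeared without KO replicate 4 (0.0252).

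Adam19 (meltrin beta, which can shed neuregulin) had 2.14, 2.33, 1.90 and 2.27 CPM in untreated KO libraries, against 0.540, 0.213, 0.278 and 0.128 CPM in untreated WT libraries. With H2O2, Adam19 had 2.22, 2.54 and 1.72 CPM in KO, against 0.189, 0.0623, 0.148 and 0.287 CPM in WT. The KO libraries were all higher. In counts this was 126 against 17 in untreated cells, a CPM ratio of 7.48 (4.49 to 13.2), and 90 against 10 with H2O2, a ratio of 13.0 (6.74 to 28). The log2 fold changes of Adam19 were 2.87 (adjusted p = 1.1e-08) and 3.62 (adjusted p = 2.79e-09). Adam19 was tested only through its KO counts, so these p-values are descriptions. Antisense genes Gm16033 and Gm16034 share 587 and 480 exon bases with it.

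The main sheddases of Notch receptors and of EGF-family ligands changed little. Adam10, which cuts Notch and cadherins, averaged 296 ± 18.1 CPM in untreated KO and 323 ± 5.73 CPM in untreated WT cells (SD, n = 4 each), a log2 fold change of -0.12 (adjusted p = 0.00768), and -0.09 with H2O2 (adjusted p = 0.0674). Its groups overlapped in both settings, and with H2O2 it passed without WT replicate 15 (adjusted p = 0.0445). Adam17, the convertase of TNF and of amphiregulin, averaged 168 ± 9.96 CPM in untreated KO and 142 ± 4.66 CPM in untreated WT cells and rose by 0.24 on the log2 scale (adjusted p = 5.81e-06), and by 0.20 with H2O2 (adjusted p = 0.000217). Adam15 (metargidin, a sheddase that binds integrins) rose by 0.39 in both settings (adjusted p = 1.38e-07 and, with H2O2, 4.81e-07). Adam1a, a relative of sperm fertilin alpha, did not pass (log2 fold change -0.10, adjusted p = 0.692), and it shares 4779 exon bases with Gm42878 and 1805 with Mapkapk5, so its counts are uncertain. On the opposite strand, Adam15 shares 1263 exon bases with 4731419I09Rik and Adam17 shares 311 with Iah1.

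Among the tested Adamts genes the larger changes were all increases. Adamts16, too low to test, ran the other way, with 14 counts over the KO libraries and 68 over the WT libraries. Adamts1 (which cuts versican and aggrecan; chr16:85793827-85803113, minus strand) had 60.0, 59.6, 62.0 and 52.6 CPM in untreated KO libraries, against 15.1, 14.7, 14.1 and 14.2 CPM in untreated WT libraries. With H2O2, Adamts1 had 57.4, 58.4 and 58.7 CPM in KO, against 17.1, 18.3, 16.6 and 16.7 CPM in WT. The KO libraries were several-fold above all WT libraries. The log2 fold change of Adamts1 was 2.01 ± 0.0593 (4.04-fold; adjusted p = 1.37e-21) in untreated cells and 1.76 ± 0.0614 (3.38-fold; adjusted p = 9.76e-20) with H2O2. Its neighbour Adamts5 (the main aggrecanase of mouse cartilage; chr16:85856173-85901828, minus strand), 53.1 kb away, was also higher, at a far lower level. Adamts5 had 40 counts over the untreated KO libraries, against 0 over the untreated WT libraries, which is at least 13.5-fold higher with the WT group set at 3 counts. With H2O2, Adamts5 had 37 counts in KO, against 1 in WT, that one in replicate 13, a CPM ratio of 53.3 (8.99 to 2160). It ranged from 0.267 CPM in replicate 4 to 0.890 CPM in untreated KO libraries. Since Adamts5 was tested only through its KO counts, while Timp3, with fewer, was not tested, its p is not given.

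Adamts7 (which cuts cartilage oligomeric matrix protein) had 54.8, 55.5, 62.9 and 60.8 CPM in untreated KO libraries, against 23.2, 24.0, 22.8 and 21.6 CPM in untreated WT libraries. With H2O2, Adamts7 had 58.3, 56.9 and 61.9 CPM in KO, against 21.0, 25.5, 25.2 and 25.6 CPM in WT. The groups were far apart. For Adamts7 the log2 fold change was 1.35 ± 0.0629 (adjusted p = 5.74e-17) in untreated cells and 1.28 ± 0.0667 (adjusted p = 9.75e-16) with H2O2. Adamts10 (which binds fibrillin microfibrils) had 2.60, 4.11, 4.30 and 2.80 CPM in untreated KO libraries, against 1.96, 0.850, 0.835 and 1.15 CPM in untreated WT libraries, and 4.51, 4.19 and 3.11 CPM in H2O2-treated KO, against 1.38, 1.06, 0.965 and 1.08 CPM in H2O2-treated WT libraries. The groups did not overlap, and the highest untreated WT value was that of replicate 9. The log2 fold changes of Adamts10 were 1.52 ± 0.24 (adjusted p = 2.73e-06) and 1.81 ± 0.255 (adjusted p = 5.04e-07).

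The other Adamts genes changed less. Adamts6, the closest relative of Adamts10, fell, with 8.60 ± 0.782 CPM in untreated KO and 13.4 ± 0.480 CPM in untreated WT cells (SD, n = 4 each; log2 fold change -0.64, adjusted p = 1.47e-07) and -0.53 with H2O2 (adjusted p = 1.25e-05). Adamts4, another aggrecanase, had 71.2, 59.4, 66.1 and 44.5 CPM in untreated KO libraries, against 47.7, 46.7, 43.9 and 47.8 CPM in untreated WT libraries, so that replicate 4 alone fell among the WT values. Its log2 fold change was 0.37 (adjusted p = 0.0143), 0.49 without replicate 4 (adjusted p = 1.57e-07), and 0.31 without KO replicate 3, where the call was lost (adjusted p = 0.0526). With H2O2 it was 0.30 (adjusted p = 0.0542), and it passed without KO replicate 7 (0.0368). Adamts14, a procollagen N-proteinase and the most abundant Adamts gene per length, averaged 145 ± 9.95 CPM in untreated KO and 135 ± 6.52 CPM in untreated WT cells with overlapping groups. Its small difference (log2 fold change 0.11, adjusted p = 0.0366) was lost without KO replicate 3 (0.253) or 4 (0.0507) or WT replicate 9 (0.0973), 10 (0.0642) or 11 (0.136), and with H2O2 (0.10, adjusted p = 0.0674) it passed without KO replicate 7 (0.0392) or WT replicate 16 (0.0375). Adamts9 (which also cuts versican) did not pass, at a log2 fold change of 0.07 (adjusted p = 0.759). Exon bases are shared with genes on the opposite strand by Adamts7 (122 with Tbc1d2b) and Adamts9 (1381 with A730049H05Rik).

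Of the inhibitors, Timp1 rose and Timp2, the most abundant member of all, barely differed. Timp1 (a secreted inhibitor of most MMPs; chrX:20870166-20874735, plus strand) had 108, 113, 98.7 and 112 CPM in untreated KO libraries, against 80.9, 76.7, 71.7 and 72.6 CPM in untreated WT libraries. With H2O2, Timp1 had 106, 114 and 104 CPM in KO, against 74.7, 70.8, 80.0 and 72.2 CPM in WT. All KO libraries were above all WT libraries. For Timp1 the log2 fold change was 0.52 ± 0.0491 (1.43-fold; adjusted p = 3.18e-10) in untreated cells and 0.54 ± 0.053 (1.46-fold; adjusted p = 6.06e-10) with H2O2. It lies in an intron of Syn1 and shares no exon base with it.

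Timp2 (which inhibits MMPs and also bridges MMP14 and pro-MMP2; chr11:118301069-118355740, minus strand) had 422, 413, 424 and 469 CPM in untreated KO libraries, against 438, 453, 421 and 451 CPM in untreated WT libraries. These overlapped, and the log2 fold change was -0.03 ± 0.0383 (adjusted p = 0.52). With H2O2, Timp2 had 399, 403 and 403 CPM in KO, against 431, 450, 447 and 464 CPM in WT. Those groups did not overlap, and Timp2 fell by 0.16 on the log2 scale (adjusted p = 0.00161). Timp3, the matrix-bound inhibitor that also blocks ADAM17 and ADAMTS enzymes, was too low to test, with 20 counts over the KO libraries and 0 over the WT libraries. The 20 KO counts comprised 8 with H2O2 and 12 untreated, and only replicate 4 of the KO libraries had none. Timp3 lies opposite to Syn3 and shares 1733 exon bases with it. Timp4 had 1 count over the KO libraries and 5 over the WT libraries.

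Summed by family, the RPKM of all 23 Mmp genes was 130 ± 2.85 in H2O2-treated KO and 124 ± 7.38 in untreated KO, against 75.4 ± 1.52 in H2O2-treated WT and 72.2 ± 4.39 in untreated WT cells (SD, n = 3, 4, 4 and 4). Mmp3 alone made up 74.9% of the Mmp sum in untreated KO cells (92.7 RPKM) and 41.7% in untreated WT cells (30.1 RPKM). The Adamts sum was 49.0 ± 3.2 in untreated KO and 33.0 ± 1.04 in untreated WT cells, and the Timp sum 169 ± 8.42 in untreated KO and 153 ± 5.24 in untreated WT cells. The Adam sum was lower in KO, with 131 ± 5.73 in untreated KO and 154 ± 1.41 in untreated WT cells. The ratio of summed Mmp to summed Timp RPKM was 0.796 ± 0.0108 in H2O2-treated KO and 0.735 ± 0.0629 in untreated KO, against 0.489 ± 0.013 in H2O2-treated WT and 0.473 ± 0.027 in untreated WT cells. It ranged from 0.65 (replicate 4) to 0.802 in untreated KO and 0.44 to 0.498 in untreated WT libraries, which do not overlap. The Mmp sum and this ratio include Mmp3 and were not computed without it, so they do not describe the Mmp family apart from Mmp3. These sums are descriptions of transcript levels and were not tested.

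H2O2 itself moved no member past the threshold. With H2O2 set against no treatment in KO cells, edgeR's quasi-likelihood test with Benjamini-Hochberg adjustment called 0 of the 28 members (0.0535% of all genes), 2 had an unadjusted p under 0.05, and DESeq2 called 0 of the 11 members to which it gave an adjusted p. The smallest p was that of Adam9, with a log2 fold change of -0.12 (unadjusted p = 0.0135, adjusted p = 0.49). In WT cells 0 were called (0.0153% of all genes), 3 had an unadjusted p under 0.05, and DESeq2 called 0 of 18. The smallest p there was that of Adamts1, which had 17.1, 18.3, 16.6 and 16.7 CPM in H2O2-treated WT libraries, against 15.1, 14.7, 14.1 and 14.2 CPM in untreated WT libraries, with a log2 fold change of 0.25 ± 0.0679 (unadjusted p = 0.00107, adjusted p = 0.466). These did not overlap, but the difference failed the correction over all genes. The interaction, the H2O2 effect in KO minus that in WT, was called for 0 members (0% of all genes), with 3 at an unadjusted p under 0.05 and 0 of 8 by DESeq2. Its smallest p was again that of Adamts1, at -0.26 (unadjusted p = 0.00651, adjusted p = 0.67). Of all 13085 genes, 1041 in KO cells, 847 in WT cells and 808 for the interaction had an unadjusted p under 0.05. DESeq2 called 61 of 5427, 12 of 8973 and 15 of 3211 genes, in the same order. The treatment comparisons share their untreated and treated libraries with the genotype comparisons.

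Replicate 9 held nearly all reads of several members that were too low to test; these members were chosen after their values were seen. Mmp8 (neutrophil collagenase) had 33 counts in replicate 9 and none in any other library. Adam12 (meltrin alpha) had 38 of its 39 counts there, Adamts20 all of its 14, Adamts12 all of its 4, and Mmp9 (gelatinase B, abundant in neutrophil granules) 35 of its 84. Without replicate 9, Mmp9 was at 0.206 to 0.655 CPM in H2O2-treated KO and 0.0668 to 0.613 CPM in untreated KO, against 0 to 0.187 CPM in H2O2-treated WT and 0.0708 to 0.348 CPM in untreated WT libraries. The summed level of 8 neutrophil markers was 135 CPM in replicate 9, with all 8 detected (S100a9 at 50.6 CPM and Mpo at 20.6 CPM), against 1.15 to 3.9 CPM in the other 14 libraries. Markers of other cell types stood apart there too, with 288 counts of Lyz2, 128 of Laptm5 and 67 of Ptprc (leukocytes), 43 of Pdgfrb (stromal cells) and 35 of Pecam1 (endothelium), against at most 5, 3, 1, 1 and 5 in any other library. The part of such transcripts in the counts of these members was not tested.

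**Figure D5:**
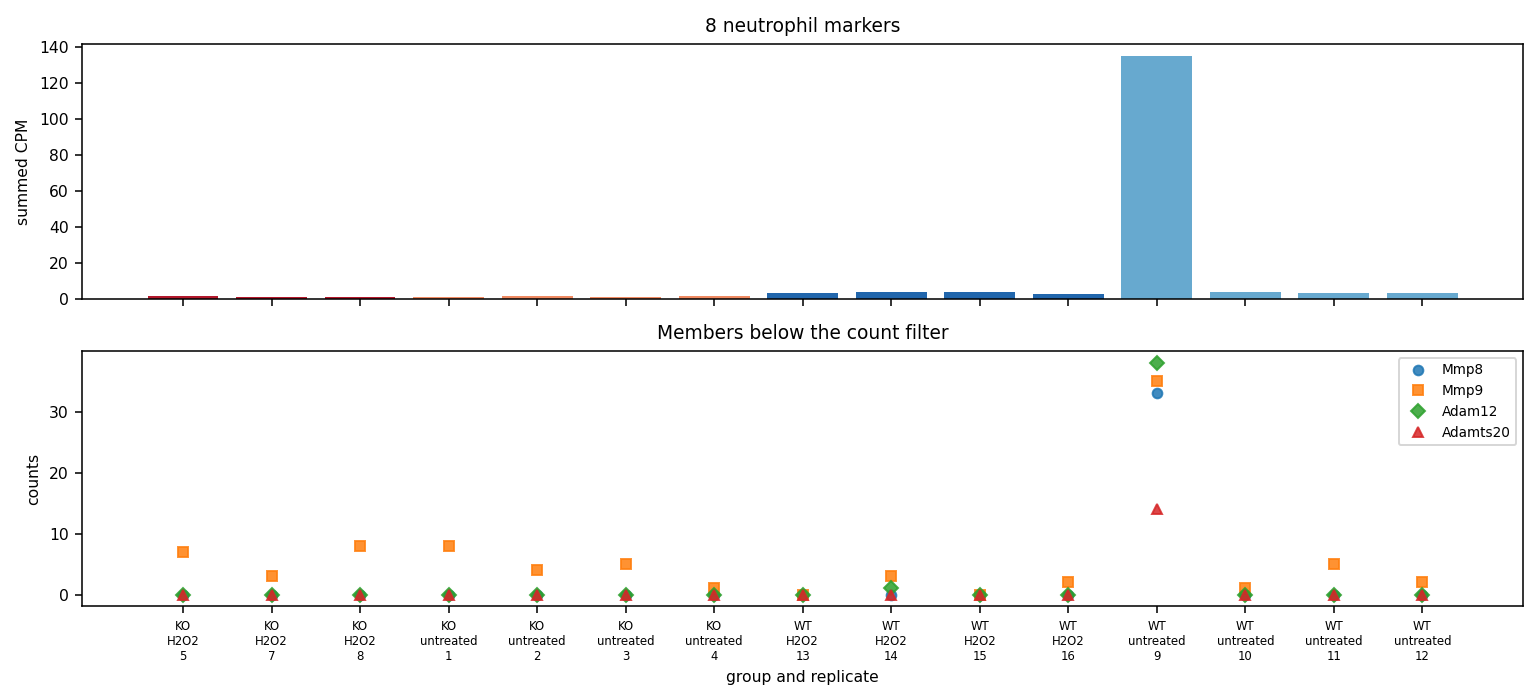
Summed CPM of 8 neutrophil markers (upper panel, linear axis from 0) and counts of Mmp8, Mmp9, Adam12 and Adamts20 (lower panel) in each of the 15 libraries, from H2O2-treated KO on the left to untreated WT on the right. WT replicate 9 stands at 135 CPM and at 33, 35, 38 and 14 counts, and elsewhere no library exceeds 3.9 CPM or 8 counts.

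Among the other untested members, Adamts16 had 14 counts over the KO libraries and 68 over the WT libraries, Mmp23 had 32 and 64, and Adam4 had 13 and 33. Apart from these and the members of replicate 9, none had more than 37 counts in all. Members with 0 counts everywhere include the sperm gene Adam2 and the enamel protease Mmp20.

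Genes that act with the metalloproteases were read from 3 lists of 30 genes each. Of 22 tested activators, inhibitors and traffic partners, 8 were higher and 9 lower in untreated KO cells, with 3 and 4 beyond 1.5-fold, and 9 and 9 with H2O2, with 3 and 4 beyond. Of all genes, 66.8% passed in untreated cells (16.9% beyond 1.5-fold) and 65.4% with H2O2 (17.0% beyond). Their median log2 fold change was -0.03 in untreated cells, against 0 over all genes. Reck, a membrane-anchored inhibitor of MMPs and ADAM10, had 1.07, 1.51, 1.58 and 1.60 CPM in untreated KO libraries, against 9.38, 10.9, 10.1 and 10.5 CPM in untreated WT libraries. These lay far apart, with a log2 fold change of -2.81 ± 0.145 (adjusted p = 6.14e-16) and -2.52 with H2O2 (adjusted p = 1.36e-13). Thbs2 (thrombospondin 2, which binds MMP2 and leads it to uptake) had 65.6, 59.4, 62.9 and 66.4 CPM in untreated KO libraries, against 0.810, 0.283, 0.696 and 0.702 CPM in untreated WT libraries, a log2 fold change of 6.64 ± 0.116 (adjusted p = 6.95e-27). Pcolce, an enhancer of procollagen C-proteinases, rose by 1.88 (adjusted p = 1.45e-21) and the ADAMTS-like gene Adamtsl5 by 1.30 (adjusted p = 3.11e-12). Adamtsl4 fell by 1.18 (adjusted p = 3.21e-11), Thbs1 by 0.87 (adjusted p = 9.44e-07) and Tspan17, a tetraspanin partner of ADAM10, by 0.89 (adjusted p = 5.39e-11). Another ADAM10 partner, Tspan14, fell by 0.65 in untreated cells and by 0.77 with H2O2, where it exceeded 1.5-fold. In untreated cells Tspan14 did so without KO replicate 4 (adjusted p = 0.00409) or WT replicate 11 (0.0367).

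Of 24 tested substrates of the sheddases, 11 were higher and 7 lower in untreated KO cells, with 5 and 2 beyond 1.5-fold, and 10 and 7 with H2O2, with 5 and 3 beyond, against the same 66.8% and 65.4% of all genes called and 16.9% and 17.0% beyond. Their median log2 fold change was 0.09, against 0 over all genes. Areg (amphiregulin, an EGF receptor ligand released by ADAM17) averaged 58.0 CPM in untreated KO and 25.3 CPM in untreated WT cells (2.29-fold, adjusted p = 1.97e-12). Notch1, a receptor cut by ADAM10, averaged 41.6 CPM in untreated KO and 19.1 CPM in untreated WT cells (1.12, adjusted p = 1.46e-13), and the adhesion molecule Vcam1 90.1 CPM in untreated KO and 19.9 CPM in untreated WT cells (2.18, adjusted p = 5.08e-09). Icam1 and Tnf rose, both being near 0 in WT cells, Icam1 with 3.48 CPM in untreated KO and 0.168 CPM in untreated WT cells and Tnf with 2.21 CPM in untreated KO and 0.0169 CPM in untreated WT cells (adjusted p = 6.1e-06 for Icam1 and 6.68e-11 for Tnf). These WT levels rest on few counts in single libraries, so no fold is given. Replicate 9 alone had Icam1 at 0.54 CPM, and the other 3 untreated WT libraries had at most 0.0696 CPM. With H2O2, replicate 13 was the only WT library with Icam1 (0.0629 CPM), and replicate 9 was the only untreated WT library with Tnf (0.0675 CPM). Cx3cl1 (fractalkine) fell by 0.88 (adjusted p = 3.57e-12). The receptor Ephb2 had 0 CPM in every KO library, against a mean of 9.44 CPM in untreated WT libraries (adjusted p = 4.53e-16). The EGF-like ligand Epgn had 0.178 CPM in H2O2-treated KO and 0.931 CPM in H2O2-treated WT cells (adjusted p = 9.86e-05), with a log2 fold change of -2.39 that ran from -1.79 without KO replicate 5 to -3.06 without KO replicate 8. Icam1 and Tnf were high enough to be tested only through KO libraries, and Ephb2 and Epgn only through WT libraries. Their p-values are therefore descriptions. The counts and the median of this list include them, so that the median is a description too.

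Of 14 tested matrix substrates, 5 were higher and 8 lower in untreated KO cells, with 2 and 5 beyond 1.5-fold, and 5 and 9 with H2O2, with 4 and 6 beyond, where 66.8% and 65.4% of all genes were called and 16.9% and 17.0% were beyond. Their median log2 fold change was -0.77, against 0 over all genes. Fn1 (fibronectin) had 267, 244, 255 and 165 CPM in untreated KO libraries, against 35.3, 33.6, 34.1 and 36.0 CPM in untreated WT libraries, replicate 4 being the lowest of the KO libraries, with a log2 fold change of 2.74 ± 0.142 (adjusted p = 3.51e-09). Of the laminin chains of basement membranes, Lamb3 averaged 11.1 CPM in untreated KO and 130 CPM in untreated WT cells (-3.55, adjusted p = 3.8e-21) and Lama3 0.242 CPM in untreated KO and 6.22 CPM in untreated WT cells (-4.65, adjusted p = 4.59e-16). Lamb1 fell by 1.14 (adjusted p = 2.83e-21). Vwf (von Willebrand factor, the substrate of ADAMTS13) fell by 3.58 (adjusted p = 2.71e-21) and Vcan (versican, cut by ADAMTS1, ADAMTS4 and ADAMTS5) by 1.75, with 0.891 CPM in untreated KO and 3.01 CPM in untreated WT cells (adjusted p = 1.18e-07). With H2O2, Lamc1 (log2 fold change 0.70), Tnc (1.57) and Col4a2 (-1.36) also exceeded 1.5-fold. In untreated cells Lamc1 did so without KO replicate 4 (adjusted p = 0.0205) or WT replicate 10 (0.0478) and Tnc without KO replicate 2 (0.0359) or 4 (0.0402). The Col4a2 call was lost without KO replicate 5 (0.224) or 8 (0.0632) or WT replicate 15 (0.0683), and with H2O2 Col1a1 gained one without KO replicate 8 (0.0497). Lama3 and Col1a1 were high enough to be tested only through WT libraries, and Tnc only through KO libraries. Their p-values are therefore descriptions. The counts and the median of this list include them, so that the median is a description too, and it was not computed without them.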

How the data were processed

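Poly(A) RNA libraries (stranded kit, read pairs) of 15 samples were analysed. The authors deposited expected counts per gene symbol, already whole numbers, and RPKM made from them. Per the submitters' processing notes, the tools were cutadapt, STAR and RSEM on mm10, without versions or settings, and strand use in counting and the annotation are not given in the sources used here. The 55341 symbols were reduced by filterByExpr to 13085 (99.917% of counts), scaled by TMM and fitted in 1 model of 4 groups by edgeR 4.0.16 in R 4.3.3 (limma 3.58.1), with robust quasi-likelihood, 11 residual degrees of freedom and Benjamini-Hochberg adjustment over all genes. Every adjusted p is from edgeR's quasi-likelihood test, or, for 1.5-fold, its glmTreat. Depth was 12.3 to 16.0 M counts per library. Intervals and floors (3 counts over a group, 95%) cover counting error only. Replicate numbers are not shared between groups, so nothing was paired.

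Members and lists were chosen with earlier results of these data known. Named are the Timp genes, members beyond 1.5-fold, the 3 most abundant of each family, the smallest p per treatment contrast, and listed partner genes beyond 1.5-fold. Other members are given for their neighbourhood or family and were chosen after their values were seen. Alternatives were RLE scaling, no filter, DESeq2 1.42.0, fits on the compared groups only, other fold limits, limma on log2 RPKM plus 0.1 or 1, CPM for order, a fit without robust dispersion, and leaving out each library. The scripts were tested on simulated counts. Some genes that the rules would name are not reported here.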

Additional observations from a re-analysis of the deposited data

Results flagged for a closer look

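In 21 named members and the 3 groups of 4 libraries, 63 sets of values were checked for a library far from the other 3, and 5 had one, where chance alone gives about 1 in 20. Mmp13 was at 26.8 CPM in untreated WT replicate 12, against 32.9 to 33.9 CPM in the other 3. Adam10 was at 314 CPM in the same replicate, against 324 to 326 CPM. Adamts7 was at 21.0 CPM in H2O2-treated WT replicate 13, against 25.2 to 25.6 CPM. Adamts5 was at 0.0629 CPM in that replicate, a single count against 0 in the other 3, and Mmp2 at 0.187 CPM in H2O2-treated WT replicate 14, against 0. For Adamts5 and Mmp2 the library held the only counts of its group, so that rate does not apply to them.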

How the results depend on the processing

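The counts of members that passed in each comparison stayed within 1.5 times under RLE scaling, no count filter, DESeq2 and fits on the compared groups, at 20 to 26 against 24 in untreated cells and 23 to 25 against 22 with H2O2, and stayed at 0 for the treatment and interaction comparisons. Of all genes, 8200 to 9135 passed in untreated cells under these settings, out of 12522 to 24487 tested. With H2O2, 8555 to 8832 passed, out of 12681 to 24487. The exception was the fold limit with H2O2, where 20 members exceeded 1.2-fold, against 11 beyond 1.5-fold. Of all 13085 genes, 4842 exceeded 1.2-fold there and 2223 exceeded 1.5-fold. Leaving out 1 library gave 21 to 24 members called and 12 to 13 beyond 1.5-fold in untreated cells, and 22 to 26 called and 9 to 12 beyond with H2O2, and 0 in the other comparisons. Of all genes, 8399 to 8682 were then called in untreated cells, out of 13031 to 13061. With H2O2, 7965 to 8308 were called, out of 13020 to 13285. Of 523 alternative values for named members, 490 kept direction and side of the threshold, 13 were no longer called, 20 became called, and 0 reversed. By CPM in place of RPKM, 13 of the 19 most abundant members kept their place in the order within 1 rank. No paired analysis was possible because the groups share no replicate numbers. Low counts limit Mmp2, Mmp1a, Mmp1b, Adam19 and Adamts5, and replicate labels do not separate cultures from technical repeats. The label conflict of replicate 9 was not resolved, and gene pairs that overlap on opposite strands were not separated.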
